A study of Mus musculus with 33 samples.

Results

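Tlr7 and Tlr9 encode the endosomal receptors of the innate immune system that detect foreign nucleic acids. TLR9 binds DNA with unmethylated CpG motifs and TLR7 binds single-stranded RNA, and both signal through the adaptor MyD88 to NF-kB and to interferon regulatory factors. In mouse spleen both receptors are known from B cells and plasmacytoid dendritic cells, among other cells. The receptors are delivered to endosomes by the transporter-like protein UNC93B1 and are cut there by proteases before they signal.

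The genes were found by their symbols in the platform annotation, which gave 2 genes of the 9672 that had a value on at least 1 array, with 1 probe each. Tlr7 (Entrez Gene 170743) lies on mouse chromosome X at 167303380 to 167330574 and Tlr9 (Entrez Gene 81897) on chromosome 9 at 106222598 to 106226876, in RefSeq's GRCm38.p6. Tlr7 had a value on 33 of 33 arrays. Tlr9 had one on 31, lacking repeat 3 of the control ODN and repeat 3 of medium at 8 h.

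Spleen cells of female BALB/c mice aged 2 months were cultured for 2, 4 or 8 h in one of 3 ways. The CpG ODN cultures received an equimolar mixture of the oligodeoxynucleotides (ODN) 1555 and 1466 at 1 uM. The control ODN cultures received 1 uM of a mixture of ODN 1612 and 1471, which the series' description calls non-CpG ODN, to control for effects of the DNA that do not depend on its sequence. The medium cultures received no ODN and control for handling and culture. Each treatment had 4 arrays at 2 h, 4 at 4 h and 3 at 8 h, 33 in all. The series' description speaks of independent experiments, but the labels do not tie a repeat number to an animal or a culture, so the p-values measure the spread between these arrays, part of which may be technical.

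Each array compared Cy5-labelled spleen cell cDNA with Cy3-labelled cDNA of Universal Mouse Reference RNA, a pooled reference. Every level below is a log2 ratio of spleen cells over that reference, centred on the array's median, so 1 unit is a 2-fold difference and a level above 0 is higher in spleen cells. The log base is not stated in the sources used here and was read from the range of the values. Between 7908 and 11129 probes had a value per array, and the number of arrays limits the precision. On every array the mean ratio of 6 B cell markers lay between 2.06 and 3.73, whereas Ms4a1, Blk and Spib averaged below 0 with CpG ODN and with the control ODN at 8 h. RNA of the whole culture was measured, so fewer cells of a type and less RNA per cell cannot be told apart.

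Tlr7 was 5.28-fold higher after 8 h with CpG ODN than with the control ODN, and 5.12-fold higher than in medium. The difference was small at 2 h, intermediate at 4 h and largest at 8 h among the 3 times sampled. Tlr9, the receptor of the CpG ODN itself, showed no difference between treatments that passed in the main fit over all groups. A fit to the CpG ODN and control ODN arrays of 8 h alone called it, as did one with the repeat number as a block. None of the 4 fits that left out 1 array did. At 8 h its ratio was higher on each CpG ODN array than on each of the 4 control arrays with a value. How many of all genes showed such a gap was not counted. The Tlr9 means of the controls at 8 h, from 2 arrays each, lay below those of 2 h, but neither fall passed in the main fit.

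**Figure D1:**
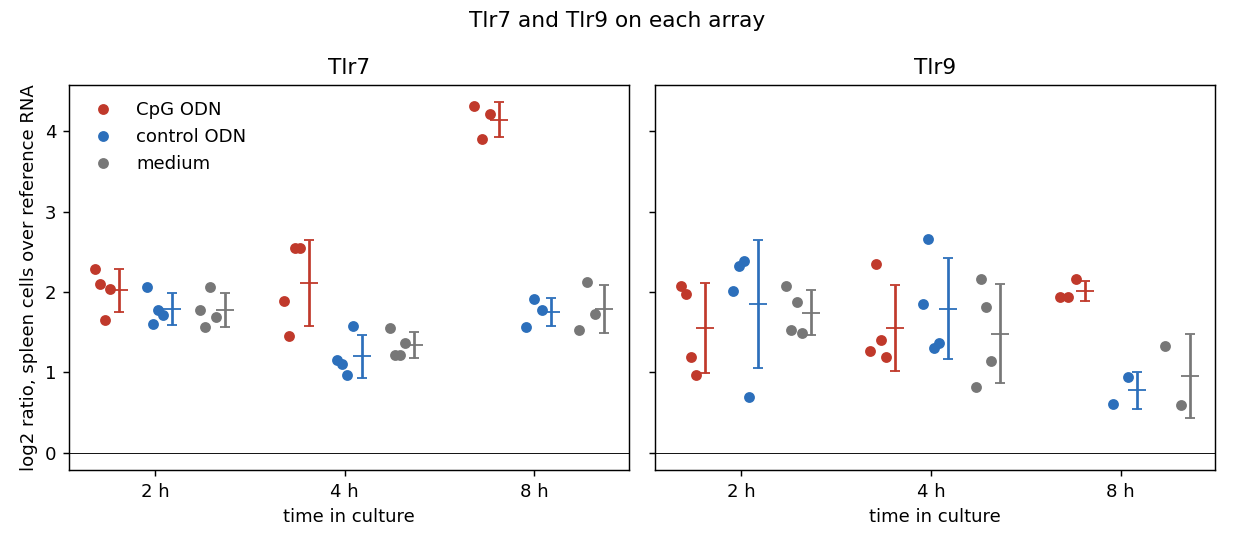
Log2 ratios of Tlr7 (left) and Tlr9 (right) on each array, with CpG ODN, control ODN and medium from left to right at 2, 4 and 8 h; points are arrays and the bars beside them give the mean and SD. The 3 CpG ODN arrays at 8 h sit between 3.91 and 4.32 for Tlr7, above every other array.

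At 8 h Tlr7 stood at 4.32, 3.91 and 4.21 on the CpG ODN arrays, at 1.56, 1.91 and 1.78 on the control ODN arrays and at 1.53, 2.12 and 1.73 on the medium arrays. The CpG ODN arrays were all high and did not overlap with either control, a gap that was not counted over all genes. The means were 4.15 ± 0.21 with CpG ODN, 1.75 ± 0.18 with the control ODN and 1.79 ± 0.30 in medium (SD, n = 3 each). The difference from the control ODN was 2.40 ± 0.24 on the log2 scale (SE, 95% interval 1.91 to 2.89), with an adjusted p of 2.32e-08 in limma's moderated test over 9494 genes. In that comparison 10.0% of genes passed the threshold of an adjusted p below 0.05, and Tlr7 had the 48th largest rise. From medium the difference was 2.36 ± 0.24 (adjusted p = 2.83e-08), where 11.8% of genes passed. Both comparisons use the same CpG ODN arrays and are not independent of each other.

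At 4 h the levels of Tlr7 were 1.89, 1.45, 2.55 and 2.55 with CpG ODN, 1.15, 1.10, 0.97 and 1.58 with the control ODN, and 1.55, 1.22, 1.21 and 1.37 in medium. Repeats 3 and 4 of CpG ODN were high, and the lowest CpG ODN array, repeat 2, lay below the highest array of each control. The mean was 2.11 ± 0.54 with CpG ODN, against 1.20 ± 0.26 with the control ODN and 1.34 ± 0.16 in medium (SD, n = 4 each). The difference from the control ODN was 0.91 ± 0.21 (SE, 95% interval 0.48 to 1.33), a 1.88-fold rise that passed limma's test at an adjusted p of 0.0396, as did 0.384% of 9630 genes. From medium it was 0.77 ± 0.21 (95% interval 0.34 to 1.20), which did not pass (adjusted p = 0.208, with 0.218% of genes called).

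The call of Tlr7 at 4 h was close to the threshold. It was lost in 6 of the 8 fits that left out 1 array, with differences from 0.76 to 1.13 and adjusted p-values up to 0.351, the 2 exceptions being control ODN repeat 4 and CpG ODN repeat 2. It was also lost with the other scalings and without the arrays of the lowest experiment IDs, and a fit to the arrays of CpG ODN and control ODN at 4 h alone gave an adjusted p of 0.794, while the difference lay between 0.89 and 0.94 in those fits.

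At 2 h Tlr7 stood at 2.29, 2.10, 1.65 and 2.04 with CpG ODN, at 2.06, 1.60, 1.78 and 1.72 with the control ODN and at 1.78, 1.56, 2.06 and 1.69 in medium. The groups overlapped. CpG ODN differed by 0.23 ± 0.21 from the control ODN (SE, 95% interval -0.19 to 0.66, adjusted p = 1) and by 0.25 ± 0.21 from medium (95% interval -0.18 to 0.68, adjusted p = 0.949). Of all genes 0.0430% passed against the control ODN and 0.0420% against medium.

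The growth of the Tlr7 difference with time was tested itself. CpG ODN minus control ODN exceeded its 2 h value by 2.17 ± 0.32 at 8 h (SE, limma interaction contrast, adjusted p = 4.51e-05), a contrast in which 3.26% of genes passed. It exceeded its 4 h value by 1.49 ± 0.32 (adjusted p = 0.00724), where 2.08% passed. Within the CpG ODN cultures Tlr7 rose by 2.13 ± 0.23 between 2 h and 8 h (adjusted p = 4.09e-08), where 16.6% of genes changed. The corresponding differences were -0.04 ± 0.23 in the control ODN cultures and 0.02 ± 0.23 in medium (adjusted p = 0.948 and 0.967), beside 10.1% and 14.6% of genes that passed there.

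The controls were not flat between those times. At 4 h the control ODN arrays all lay below those of 2 h, by 0.59 on average (adjusted p = 0.184), and the medium arrays likewise, by 0.43 (adjusted p = 0.373). Neither difference passed the test. With the time courses chosen after the values had been seen, these are descriptions. CpG ODN cultures differed by 0.09 ± 0.21 between 4 h and 2 h, so the 4 h difference stands beside lower controls. The control ODN itself differed from medium by 0.02 ± 0.21 at 2 h, -0.14 ± 0.21 at 4 h and -0.04 ± 0.24 at 8 h.

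In the order of the 9 group means of Tlr7, CpG ODN at 8 h came 2.04 above CpG ODN at 4 h, a gap well over the larger SD of 0.54. The next gap over an SD separated the control ODN at 8 h, at 1.75, from medium at 4 h, at 1.34. All other neighbours in the order differed by less than the larger of their SDs.

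**Figure D2:**
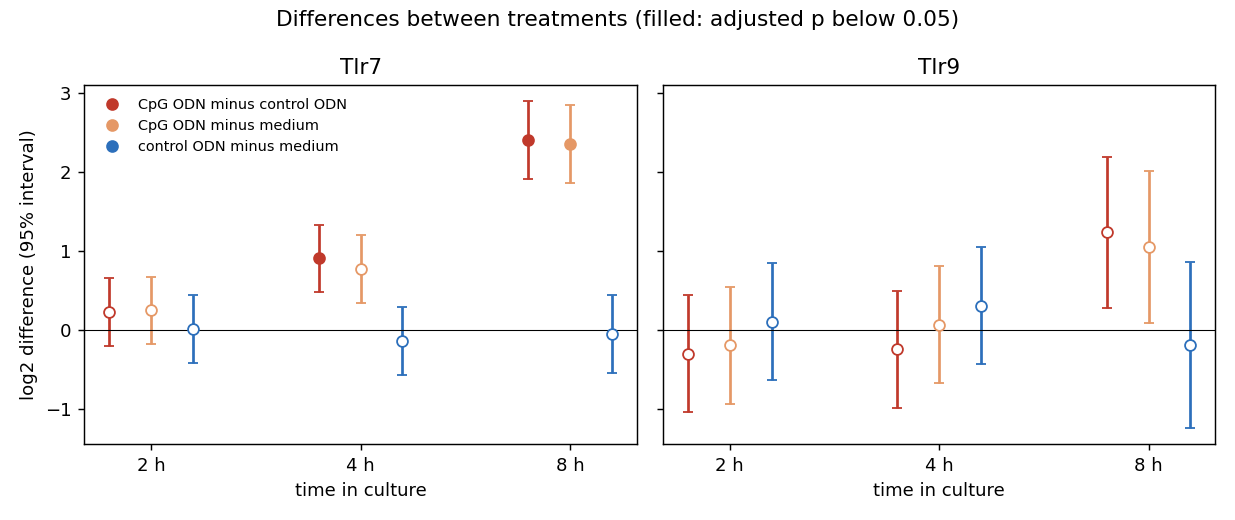
Log2 differences between treatments for Tlr7 (left) and Tlr9 (right) at 2, 4 and 8 h, with 95% intervals from the fit over all arrays; filled points passed an adjusted p below 0.05. CpG ODN minus control ODN reaches 2.40 for Tlr7 and 1.24 for Tlr9 at 8 h, and the interval for Tlr9 spans 0.28 to 2.19.

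Tlr9 at 8 h stood at 1.94, 1.94 and 2.16 on the CpG ODN arrays, at 0.61 and 0.94 on the control ODN arrays and at 1.33 and 0.59 on the medium arrays. CpG ODN arrays were all higher than the 4 control arrays with a value, without overlap. How many of all genes showed such a gap at 8 h was not counted. The mean was 2.01 ± 0.13 with CpG ODN (SD, n = 3), against 0.77 ± 0.24 with the control ODN and 0.96 ± 0.52 in medium (SD, n = 2 each). The difference from the control ODN was 1.24 ± 0.47 (SE, 95% interval 0.28 to 2.19), or 2.36-fold, with an unadjusted p of 0.0129 and an adjusted p of 0.0952 in limma. From medium it was 1.05 ± 0.47 (95% interval 0.10 to 2.01, adjusted p = 0.154). A fit to the CpG ODN and control ODN arrays of 8 h alone gave an adjusted p of 0.0257, which passed. The difference from the control ODN also passed in a fit over all groups with the repeat number as a block. In the 4 fits that left out 1 array it did not pass (adjusted p from 0.109 to 0.19). Nor did the difference from medium (adjusted p from 0.181 to 0.262).

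At 2 h Tlr9 stood at 2.08, 1.97, 1.19 and 0.97 with CpG ODN, at 2.01, 2.32, 2.39 and 0.69 with the control ODN and at 2.07, 1.53, 1.88 and 1.49 in medium. The groups overlapped widely, and the difference from the control ODN was -0.30 ± 0.36 (SE, 95% interval -1.04 to 0.44). At 4 h the levels were 1.27, 2.35, 1.40 and 1.19 with CpG ODN, 1.85, 2.66, 1.30 and 1.36 with the control ODN, and 0.82, 2.16, 1.81 and 1.14 in medium. They again overlapped, with a difference from the control ODN of -0.24 ± 0.36 (95% interval -0.98 to 0.50). The intervals reach about 1 unit below 0, so a fall of that size lies within them. From medium the differences were -0.19 ± 0.36 at 2 h and 0.07 ± 0.36 at 4 h.

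The levels of Tlr9 over time were compared within each treatment. With CpG ODN, Tlr9 differed by 0.46 ± 0.39 between 8 h and 2 h (SE, adjusted p = 0.474). In the control ODN cultures the same difference was -1.08 ± 0.44 (adjusted p = 0.128), and in medium -0.78 ± 0.44 (adjusted p = 0.266). None passed the test, and each control rests on the 2 arrays with a value at 8 h. The control ODN value passed without control ODN repeat 4 of 2 h, where Tlr9 stood at 0.69 (-1.47, adjusted p = 0.0241). The change of the Tlr9 difference since 2 h thus combined shifts of 0.46 with CpG ODN and -1.08 with the control ODN, neither passing in the main fit. That of Tlr7 combined shifts of 2.13 with CpG ODN and -0.04 with the control ODN. The change of the Tlr9 difference with time was 1.54 ± 0.59 for 8 h minus 2 h (adjusted p = 0.188) and 1.48 ± 0.59 for 8 h minus 4 h (adjusted p = 0.278). The 8 h minus 2 h value passed without control ODN repeat 4 of 2 h (1.92, adjusted p = 0.047).

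Tlr9 varied more between arrays of a group than most genes. Its residual SD was 0.547, above that of 88.5% of genes, against 0.286 for Tlr7, above that of 27.2%. Part of this spread went with the repeat number. At 4 h the 3 arrays of repeat 2 read 2.16 to 2.66 for Tlr9, with means of 1.31, 1.50 and 1.23 for repeats 1, 3 and 4. At 2 h the arrays of repeat 4 read 0.69 to 1.49, with means of 1.82 to 2.05 for the others. The arrays whose mAdb experiment ID in the labels lies below 70000 included CpG ODN repeat 1 and control ODN repeats 1 and 2 of 2 h. Within them Tlr9 read 2.08 with CpG ODN, against 2.01 and 2.32 with the control ODN, and Tlr7 read 2.29 with CpG ODN, against 2.06 and 1.60 with the control ODN.

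**Figure D3:**
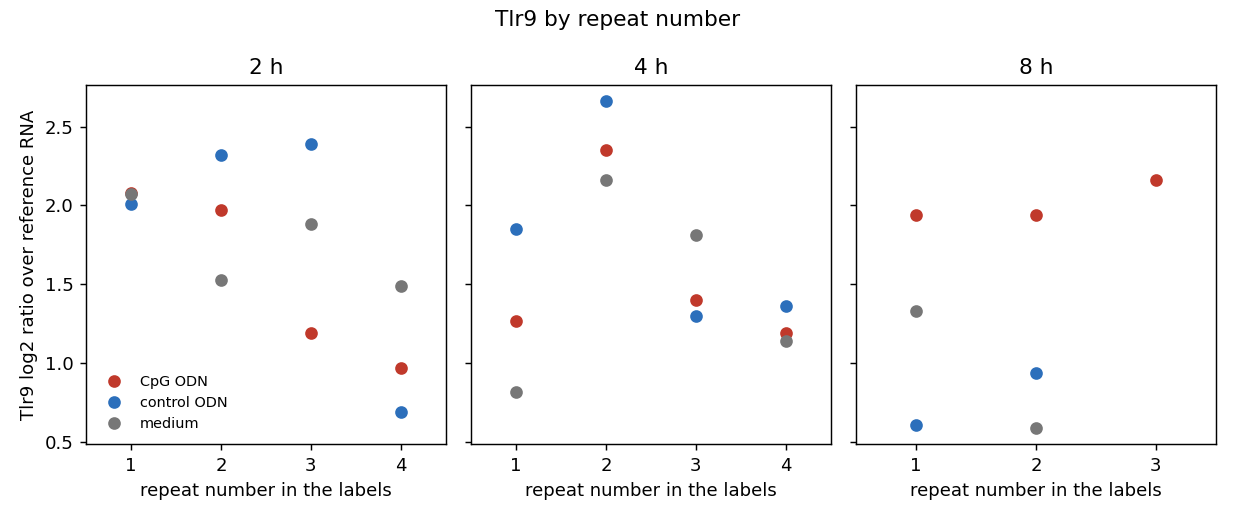
Log2 ratios of Tlr9 by the repeat number of the labels at 2, 4 and 8 h; each point is an array, coloured by treatment. Repeat 2 is high in all treatments at 4 h (2.16 to 2.66), repeat 4 is low at 2 h (0.69 to 1.49), and at 8 h repeat 3 has a value with CpG ODN alone.

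In the order of its 9 group means, no gap between neighbours of Tlr9 exceeded the larger of their SDs. CpG ODN at 8 h was highest at 2.01 and the control ODN at 8 h lowest at 0.77.

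Exact tests were also run on the arrays of each time alone. Against both controls together, Tlr7 was higher with CpG ODN by 0.24 at 2 h (exact two-sided permutation p = 0.121), by 0.84 at 4 h (exact permutation p = 0.0121) and by 2.38 at 8 h (exact permutation p = 0.0238, the smallest that 84 assignments of 3 arrays against 6 allow). The values adjusted over the 6 exact tests of Tlr7 and Tlr9 were 0.181, 0.0714 and 0.0714. Tlr9 differed by -0.24 at 2 h (exact permutation p = 0.481) and by -0.08 at 4 h (exact permutation p = 0.844). At 8 h it was higher by 1.14 (exact permutation p = 0.0571, the smallest that 35 assignments allow, adjusted 0.114), so 3 arrays against 4 could not reach 0.05.

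Whether the receptors moved by different amounts was tested on the difference of their ratios within each array at 8 h. This difference, Tlr7 minus Tlr9, was 1.97 to 2.39 on the CpG ODN arrays (mean 2.14), against 0.20 to 1.53 on the 4 control arrays with both values (mean 0.91). The shift of 1.23 had an exact two-sided permutation p of 0.0571, again the smallest possible. Over the 9 group means the Pearson correlation of Tlr7 with Tlr9 was 0.372, as a description.

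The promoter of Tlr9 was examined for elements of known regulators because TLR9 is the receptor of the agent and interferon response genes rose at 8 h. RefSeq's GRCm38.p6 window from 250 bases before to 50 bases after the start, chr9:106222348-106222647 on the plus strand, is shown with the matches in capitals.
Tlr9 promoter: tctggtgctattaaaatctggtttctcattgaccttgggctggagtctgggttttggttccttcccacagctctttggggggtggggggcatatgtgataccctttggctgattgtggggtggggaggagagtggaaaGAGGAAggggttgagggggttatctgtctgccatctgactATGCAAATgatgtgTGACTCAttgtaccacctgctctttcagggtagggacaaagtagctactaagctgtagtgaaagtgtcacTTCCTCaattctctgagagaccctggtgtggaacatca

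The capitals mark, from left to right, the PU.1-type element GAGGAA at -112 to -107 from the start, the octamer ATGCAAAT bound by OCT factors at -72 to -65, the AP-1 element at -58 to -52 (searched as TGANTCA), and GAGGAA on the minus strand at 12 to 17. None of these overlap. Both strands of 32851 mouse promoter windows of the same length were searched, and 1.74% held the octamer, 7.81% the AP-1 element and 28.3% GAGGAA. The interferon element searched as GAAA, any 2 bases and GAAA (in 3.44% of windows), the STAT element TTCNNNGAA (in 8.3%) and the NF-kB element searched as GGG, any 5 bases and CC (in 50.8%) had no match in the Tlr9 window. The window contains 0 CG dinucleotides, as do 5.43% of windows. These are letter matches, which describe the sequence and not binding. The elements were chosen with the sequence in view.

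Among the other Toll-like receptors and their accessory proteins, 8 were tested at 8 h. Of these, 1 rose and 1 fell against the control ODN, with a median difference of -0.15 beside -0.12 over all genes, of which 4.55% rose and 5.45% fell. Against medium 0 rose and 2 fell, also at an unadjusted p below 0.05, beside 5.66% and 6.11% of all genes. Ly96, or MD-2, the protein that presents lipopolysaccharide to TLR4, averaged 0.45 ± 0.20 with CpG ODN and -0.29 ± 0.14 with the control ODN (SD, n = 3 each) and rose by 0.74 ± 0.21 (SE, limma adjusted p = 0.0205). That call was lost without control ODN repeat 3 or CpG ODN repeat 2 (adjusted p up to 0.113), and in a fit to those groups alone. Against medium Ly96 differed by 0.30 ± 0.21, which did not pass (adjusted p = 0.403).

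Cd14, the co-receptor that delivers lipopolysaccharide, averaged -1.27 ± 0.66 with CpG ODN and 0.26 ± 0.64 with the control ODN (SD, n = 3 each), and fell by 1.53 ± 0.30 (SE, limma adjusted p = 0.000784). Fitted on those groups alone, its adjusted p was 0.056. Against medium Cd14 fell by 1.30 ± 0.30 (adjusted p = 0.00373). Tlr4, the lipopolysaccharide receptor, differed by -0.91 ± 0.30 (adjusted p = 0.0505), and Cd180, a TLR4 relative on B cells, by -0.90 ± 0.31 (adjusted p = 0.0589), neither passing. Against medium Tlr4 fell by 1.04 ± 0.30 (adjusted p = 0.0198), whereas Cd180 differed by -0.23 ± 0.31 (adjusted p = 0.719). Against the control ODN both passed in some other fits, Tlr4 without CpG ODN repeat 1 (adjusted p = 0.0434) and Cd180 without control ODN repeat 2 (adjusted p = 0.0396). Ly86, the partner of CD180, differed by 0.61 ± 0.30 and did not pass. Tlr1, a receptor for bacterial lipopeptides, differed by -0.31 ± 0.32, the flagellin receptor Tlr5 by 0.16 ± 0.25 and the lipopeptide receptor Tlr6 by 0.00 ± 0.25. At 4 h 0 of the 8 passed in limma, with 2 at an unadjusted p below 0.05, and at 2 h 0 passed by either count.

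**Figure D4:**
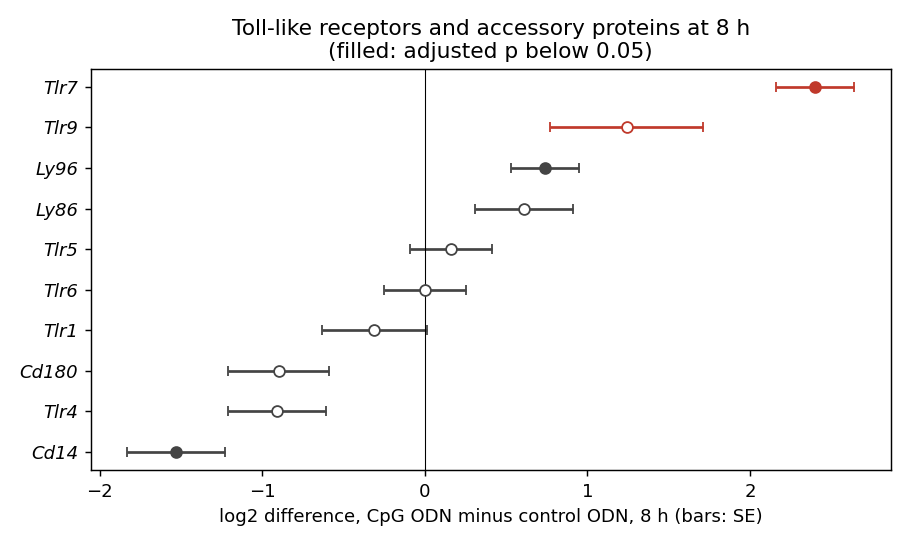
Log2 difference at 8 h, CpG ODN minus control ODN, of the Toll-like receptors and accessory proteins tested, with SE bars; filled points passed an adjusted p below 0.05, and Tlr7 and Tlr9 are in red. Tlr7 (2.40) and Ly96 (0.74) rose, Cd14 fell by 1.53, and Tlr9 (1.24) did not pass.

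The proteins that bring TLR7 and TLR9 to endosomes and process them gave 10 genes tested at 8 h, of which 0 rose and 1 fell, or 0 and 2 at an unadjusted p below 0.05, beside 4.55% and 5.45% of all genes. Ap3b1, a subunit of the AP-3 sorting complex, fell by 0.72 ± 0.20 (SE, limma adjusted p = 0.0171). That call was lost without control ODN repeat 2 or CpG ODN repeat 3 (adjusted p = 0.0514 and 0.0704). The median of the 10 was -0.25.

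Downstream of the receptors, 14 genes of adaptors, kinases and transcription factors had a median of 0.18, beside -0.12 over all genes, and 3 rose, beside 4.55% of all genes. Irf1, an interferon regulatory factor, rose by 1.72 ± 0.29 (SE, limma adjusted p = 0.000116). Myd88, the adaptor that both receptors use, rose by 1.41 ± 0.25, with a mean of 1.19 ± 0.10 for CpG ODN and -0.22 ± 0.43 for the control ODN (SD, n = 3 each, limma adjusted p = 0.000202). Irf8, a transcription factor of B cells and dendritic cells, rose by 1.27 ± 0.35 (limma adjusted p = 0.0173), which no longer passed without repeat 3 of the control ODN or repeat 2 or 3 of CpG ODN (adjusted p up to 0.0684).

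Of 12 genes listed as regulators of TLR signalling, most of them inhibitors, 4 rose, beside 4.55% of all genes, with a median of 0.15. Socs1, a suppressor of cytokine receptor signalling, rose by 3.79 ± 0.31. Nfkbiz, a nuclear IkB protein, rose by 2.31 ± 0.22 and Nfkbia, the cytoplasmic inhibitor of NF-kB, by 1.15 ± 0.26. The call of Socs3 (0.70 ± 0.23, limma adjusted p = 0.0477) was lost in 5 of the 6 fits that left out 1 array, the exception being CpG ODN repeat 1, and in 4 others. Nfkbiz had already risen at 2 h, by 1.91 ± 0.19 (limma adjusted p = 3.7e-07). At 4 h Nfkbiz, Socs1 and Nfkbia rose by 2.27 ± 0.19, 1.37 ± 0.27 and 1.21 ± 0.23.

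The list of cytosolic nucleic acid sensors, which detect RNA and DNA outside endosomes, and their adaptors gave 12 genes tested at 8 h. Of these 6 rose and 0 fell (1 at an unadjusted p below 0.05), beside 4.55% and 5.45% of all genes. Their median was 0.63. Zbp1, a sensor of Z-form nucleic acids, rose by 3.53 ± 0.21 and Ifih1, the RNA sensor MDA5, by 3.15 ± 0.23. Dhx58, its relative LGP2, rose by 2.62 ± 0.23 and Eif2ak2, the RNA-dependent kinase PKR, by 2.58 ± 0.32. At 4 h 0 of the 12 passed in limma, with 3 at an unadjusted p below 0.05; their differences were not tested against that of Tlr7. The 25 interferon response genes tested share Zbp1, Ifih1 and Oas3 with the list of sensors. At 8 h 18 rose with a median of 2.43, beside 4.55% of all genes. At 4 h 5 rose, where 0.384% of all genes passed in either direction. Ifit1, an interferon-induced antiviral protein, rose by 1.71 ± 0.20 at 4 h and by 4.43 ± 0.23 at 8 h, and Cxcl10, an interferon-induced chemokine, by 1.37 ± 0.22 and by 4.96 ± 0.26.

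Markers of several cell types moved at 8 h as well. Of 13 B cell markers tested 4 fell against the control ODN (median -0.79) and 3 against medium (median -0.31), beside 5.45% and 6.11% of all genes. Against the control ODN Fcrla fell by 2.18 ± 0.38, Cd79b by 1.87 ± 0.29, Cr2 by 1.14 ± 0.29 and Pou2af1 by 0.79 ± 0.22 (SE). The calls of Fcrla and Cd79b held in every alternative, whereas Cr2 did not pass without control ODN repeat 1 or CpG ODN repeat 2, nor Pou2af1 without control ODN repeat 2 or CpG ODN repeat 3. The mean of the 6 B cell markers with a value on every array was 2.06 to 2.47 with CpG ODN, 3.07 to 3.73 with the control ODN and 2.95 to 3.63 in medium at 8 h. Ms4a1, Blk and Spib did not fall against the control ODN, with differences of 0.04, 0.11 and 0.03.

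The 6 markers of plasmacytoid dendritic cells tested had a median of -0.08. Of these 2 rose, Irf8 (above) and Ly6d by 1.36 ± 0.29, beside 4.55% of all genes. Tcf4, Cd209d, Pacsin1 and Spib differed by -0.31, -0.37, -0.18 and 0.03, and none of them passed. Irf8 and Ly6d are the ones with a value on every array, so a mean over them leaves out the markers that did not rise. Their mean at 8 h was 3.80 to 4.25 with CpG ODN, 2.53 to 2.87 with control ODN and 2.33 to 2.99 in medium. At 2 h it was 2.41 to 3.44, 2.64 to 3.65 and 3.11 to 3.47, so CpG ODN was not higher then. At 4 h the same mean was 2.63 to 3.72 with CpG ODN, 1.81 to 2.74 with the control ODN and 2.05 to 2.84 in medium, and 0 of the 6 markers passed in limma, with 2 at an unadjusted p below 0.05. Of 11 monocyte and macrophage markers 2 fell, Cd14 and Vcam1, beside 5.45% of all genes. Fcgr1 rose by 0.99 ± 0.30, which did not pass without CpG ODN repeat 1 or control ODN repeat 2 or 3. Of 11 T cell markers 4 fell against the control ODN and 1 against medium, beside 5.45% and 6.11% of all genes. Against the control ODN Lat fell by 1.20 ± 0.27 and Cd5 by 0.90 ± 0.23, while Cd3e did not pass without control ODN repeat 3 or CpG ODN repeat 2, nor Cd3g without control ODN repeat 2 or after quantile normalization. After quantile normalization the calls of Pou2af1, Vcam1 and Cd5 were lost (adjusted p = 0.281, 0.0526 and 0.105). Of 6 conventional dendritic cell markers 0 passed, also without adjustment. The 7 neutrophil and 5 erythroid markers tested had medians of -0.67 and -0.82 against the control ODN, beside -0.12 over all genes. Of these 0 and 1 fell, beside 5.45% of all genes. Against medium their medians were -0.58 and 0.05, and 1 of each fell, beside 6.11% of all genes. The part of these shifts in the Tlr7 and Tlr9 differences was not tested.

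The genes whose 9 group means ran most like those of Tlr7, among 8945 with values in every group, were Ece2 (Pearson r = 0.985), Gbp3 (0.981), Ppat (0.979), Tpst1 (0.977), Psma5 (0.976) and Uck2 (0.975). Gbp3 is an interferon-induced GTPase, Ece2 an endothelin-converting protease and Ppat the enzyme that commits to purine synthesis. Tpst1 sulfates tyrosines, Psma5 is a proteasome subunit and Uck2 a uridine kinase. Against the control ODN at 8 h they were higher by 0.69 (Uck2) to 2.56 (Gbp3). The likeness rests on CpG ODN at 8 h, since without that group 0 of the 6 stayed among the 6 most like, and Zc3h12a came first (r = 0.957). Computed over arrays instead of means, 1 of the 6 stayed, Gbp3.

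For Tlr9 the most alike were Mlkl (r = 0.941), Anp32b (0.933), Gypc (0.926), Tbrg4 (0.923), Osbpl3 (0.922) and Orc2 (0.917). Mlkl is the effector of necroptosis, Gypc a red cell membrane glycoprotein, Osbpl3 a lipid-binding protein and Orc2 a subunit of the origin recognition complex. Their group means were lower in both controls at 8 h than at 2 h, as for Tlr9, a likeness for which they were chosen. Without CpG ODN at 8 h 1 of the 6 stayed, Osbpl3 (r = 0.987), and over the arrays 0 did, where the highest r was 0.716.

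**Figure D5:**
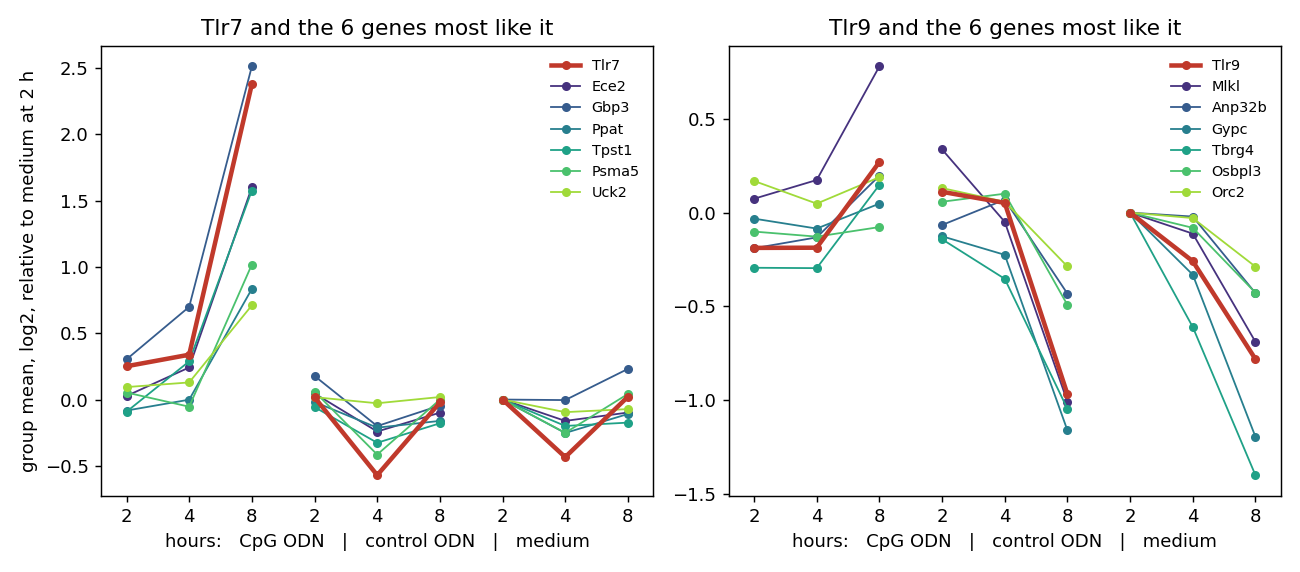
Group means of Tlr7 (left) and Tlr9 (right) and of the 6 genes most like each, relative to medium at 2 h on the log2 scale, over 2, 4 and 8 h in CpG ODN, control ODN and medium from left to right. The genes were chosen for their likeness to Tlr7 or Tlr9. The Tlr7 group climbs with CpG ODN at 8 h, and the Tlr9 group drops in both controls at 8 h.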

How the data were processed

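Per the labels, total RNA was labelled with Cy5 and hybridised with Cy3-labelled reference RNA, with no dye swap. The authors' deposited table gives a log2 ratio per probe and array (base inferred here); of the steps before deposit, background correction and normalization are not stated in the labels. The table covers 16720 probes, 11303 of them measured. Probes were named from the platform annotation; 14361 Entrez identifiers matched RefSeq and 0 symbols changed. Probes with several symbols or none were left out, and a gene with several probes (511 genes) took the one with most values, which left 9672 genes.

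Arrays were centred on their median. Group means for all 9 groups were estimated jointly with limma 3.58.1 in R 4.3.3 (exact tests with scipy 1.17.1), with Benjamini-Hochberg adjustment per comparison and at least 2 measured arrays per compared group. The fit was tested on simulated data. Every adjusted p of a gene is limma's unless an exact test is named. Named beside Tlr7 and Tlr9 were the 6 genes most like each in group means, every tested Toll-like receptor, and per other list up to 4 called genes with the smallest p at 8 h; markers were named after their values were seen. Members and lists were chosen with earlier results of these data known, and the time courses other than medium 8 h minus 2 h were added later. Alternatives were other scalings, a block for the repeat number, only the compared groups, array weights, all measured probes, complete genes, and leaving out the arrays with an mAdb experiment ID below 70000 or 1 array.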

Additional observations from a re-analysis of the deposited data

Results flagged for a closer look

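The difference of Tlr7 between CpG ODN and control ODN changed with time in the test of the change itself (limma interaction contrasts). The 8 h difference exceeded that of 2 h by 2.17 (adjusted p = 4.51e-05) and that of 4 h by 1.49 (adjusted p = 0.00724). Fitted on the 4 groups of that contrast alone, the Tlr7 value of 8 h minus 4 h did not pass (adjusted p = 0.0659).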

How the results depend on the processing

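The 8 h differences of Tlr7 from both controls and its growth since 2 h passed in every alternative limma fit that was run. The call at 4 h against the control ODN did not: the value was 0.89 as deposited (adjusted p = 0.0598), 0.94 after quantile normalization (0.071), 0.91 in a fit to the compared groups alone (0.794) and 0.91 without the arrays of low experiment ID (0.0598). It was lost in 6 of 8 fits without 1 array, with values of 0.76 to 1.13. Fitted on the compared groups alone, the 8 h minus 4 h value of Tlr7 was 1.49 and no longer passed (adjusted p = 0.0659). Against medium at 4 h Tlr7 passed with array weights (0.97, adjusted p = 0.00333) and without CpG ODN repeat 2 (0.99, adjusted p = 0.0203; range without 1 array 0.62 to 0.99). Tlr9 against the control ODN at 8 h passed with a fit to those groups alone (1.24, adjusted p = 0.0257) and with the repeat number as a replicate block (1.16, adjusted p = 0.0325). Same-numbered arrays correlated more (medians 0.224, 0.405 and 0.484 at 2, 4 and 8 h) than unlike numbers (-0.092, -0.159 and -0.176). Same-numbered values ranged from -0.412 to 0.736, and the main fit left this likeness out. The block moved the genes called at 8 h to 1489 against the control ODN and 1698 against medium, beside 949 and 1115. Causes were not tested.

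Small differences turned sign. Tlr9 against medium was 0.024 at 2 h after quantile normalization, and at 4 h -0.15 without low IDs and -0.14 with array weights. Control ODN minus medium at 2 h was -0.089 (array weights), -0.023 (without low IDs) and -0.10 (low IDs as a block, added after seeing the data) for Tlr7, and -0.20 without low IDs for Tlr9. For Tlr7 it was 0.041 at 8 h with array weights. Tlr7 in medium, 8 h minus 2 h, was -0.004 as deposited, -0.23 after quantile normalization and -0.15 with array weights. Tlr7 in the control ODN cultures was 0.001 without low IDs and 0.073 with their block. Tlr6 was -0.035 with array weights. In exact tests on other scalings, added after seeing the data, Tlr7 gave after quantile normalization 0.50 at 2 h, 0.92 at 4 h and 2.45 at 8 h (exact permutation tests, each adjusted p = 0.0476), and Tlr9 gave 0.02 at 4 h.

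Ranges without 1 array crossed 0 or the threshold as follows. At 2 h, CpG ODN minus medium was -0.36 to 0.008 for Tlr9, and control ODN minus medium -0.073 to 0.11 for Tlr7 and -0.069 to 0.50 for Tlr9. At 4 h, Tlr9 was -0.50 to 0.051 against the control ODN and -0.19 to 0.30 against medium. At 8 h, control ODN minus medium was -0.17 to 0.12 for Tlr7, and Tlr6 ranged over -0.11 to 0.12. Across times, the Tlr9 value of 8 h minus 2 h was 1.34 to 1.92 for CpG ODN minus control ODN and -1.47 to -0.90 in the control ODN cultures, and that of Tlr7 was -0.14 to 0.15 in medium and -0.12 to 0.057 in the control ODN cultures. At 8 h only CpG ODN arrays, or arrays without a Tlr9 value, could be left out for Tlr9, since each control has 2 values, and complete genes gave no value for it.

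The number of genes called moved by over 1.5 times from 37, 21 and 949 genes in CpG ODN minus control ODN at 4 h, CpG ODN minus medium at 4 h and CpG ODN minus control ODN at 8 h to 9, 5 and 564 genes in fits to the compared groups alone, and to 75 and 84 with array weights at 4 h. Complete genes gave 21 and 13 at 4 h, quantile normalization 626 at 8 h, and leaving out low IDs 12 against medium at 4 h. Against medium at 8 h, 1115 genes became 315 with those groups alone and 1995 with array weights. Against medium at 2 h, 4 genes became 8 with quantile normalization, 7 with the block and 122 with array weights, and at 4 h 33 with the block. For the growth since 2 h, 298 genes became 524 with the block and 473 with array weights. For that since 4 h, 197 genes became 325, 450 and, with those groups alone, 98. For 8 h minus 2 h, array weights gave 2704 in medium, beside 1379, and 2438 with CpG ODN, beside 1579, and fits to those groups alone gave 385 in medium and 478 with the control ODN, beside 935. Without 1 array the counts of genes ranged over 19 to 39 at 4 h and 557 to 887 at 8 h against the control ODN, and over 690 to 1415 against medium at 8 h.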
